A study of Mus musculus with 203 samples.

Results

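The interleukin 1 (IL-1) family and inflammasome genes Il1a, Il1b, Il18, Il1rn, Il1r1, Il1rap, Il1r2, Nlrp3 and Casp1 were followed in mouse lung. These 9 genes were chosen by name among the 43346 rows of a gene count table, and all 9 had a row and passed the filter on low counts at both time points. Bulk RNA-seq was run on airways and on parenchyma, which had been separated from the lungs of female Balb/C mice labelled as 18 to 20 weeks old. At 3 weeks, mice had received house dust mite extract (HDM) intranasally, as a model of asthma, or phosphate buffered saline (PBS). Of PBS mice there were 11 libraries of airway and 12 of parenchyma, and of HDM mice 10 of each. At 11 weeks, mice had received HDM or PBS, breathed normal air (AIR) or cigarette smoke (CS) for 8 weeks, and were treated with the glucocorticoid dexamethasone (DEX) in the last week or not. Every combination of these was sequenced in both tissues with 10 libraries, giving 16 groups. The labels name no genetic change in any group. CS is a model of chronic obstructive pulmonary disease, and HDM with CS one of the overlap of both diseases. The labels tie no airway library to the parenchyma of the same mouse, and do not say whether mice of a group shared a cage, so p-values measure the spread between libraries taken as independent.

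Il1a and Il1b encode the IL-1 cytokines, which signal through the receptor Il1r1 with its co-receptor Il1rap, the adaptor MyD88 and NF-kB. Il1rn encodes the receptor antagonist, which occupies the receptor without signalling, and Il1r2 a decoy receptor that binds IL-1 without signalling. Pro-IL-1 beta and pro-IL-18 are cut to their active forms by caspase 1, the product of Casp1, which is recruited by inflammasomes such as that of NLRP3. IL-1 alpha is active without this cut. In the lung these genes are known from macrophages, neutrophils and epithelium, and IL-18 is also made in epithelium at rest. RNA levels say nothing of this processing. On mm10, Il1a (chr2:129299610-129309972) and Il1b (chr2:129364570-129371139) lie close together on chromosome 2, with Il1rn (chr2:24336853-24351494) on the same chromosome. Il1r2 (chr1:40074079-40125231) and Il1r1 (chr1:40225080-40317257) are neighbours on chromosome 1. Il18 (chr9:50554827-50581840) and Casp1 (chr9:5298517-5307265) are on chromosome 9, Nlrp3 (chr11:59541568-59566956) on 11 and Il1rap (chr16:26581704-26730117) on 16, and counts are over the exons of each gene.

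The promoters of 5 members are shown because these genes bracket the responses below, from the largest rise (Il1rn) to a fall (Il18). All 9 genes had at least 1 window in the RefSeq table for GRCm38.p6, 13 windows in all, and each window is the 250 bases before an annotated start. Il1a (chr2:129309973-129310222) and Il1b (chr2:129371140-129371389) lie on the minus strand. Il1rn (chr2:24336610-24336859, the first of its 3 starts), Nlrp3 (chr11:59541319-59541568 at its start 1 and chr11:59542436-59542685 at its start 2) and Il18 (chr9:50554450-50554699) lie on the plus strand. Each is printed 5′ to 3′ on the strand of the gene, and capitals mark matches to the motifs searched.
Il1a: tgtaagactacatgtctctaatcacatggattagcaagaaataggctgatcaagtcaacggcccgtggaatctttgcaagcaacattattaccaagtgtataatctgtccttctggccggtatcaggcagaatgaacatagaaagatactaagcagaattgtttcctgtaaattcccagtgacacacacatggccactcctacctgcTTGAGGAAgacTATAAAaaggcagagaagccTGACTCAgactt
Il1b: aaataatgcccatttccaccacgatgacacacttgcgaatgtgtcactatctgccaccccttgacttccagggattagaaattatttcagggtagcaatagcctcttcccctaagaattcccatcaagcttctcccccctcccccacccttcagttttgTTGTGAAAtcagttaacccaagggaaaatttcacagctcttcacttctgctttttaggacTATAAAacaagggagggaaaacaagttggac
Il1rn: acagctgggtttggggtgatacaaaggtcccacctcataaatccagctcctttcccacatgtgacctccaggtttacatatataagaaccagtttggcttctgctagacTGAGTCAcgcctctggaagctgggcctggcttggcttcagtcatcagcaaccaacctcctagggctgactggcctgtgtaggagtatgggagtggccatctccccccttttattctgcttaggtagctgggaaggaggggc
Nlrp3, start 1: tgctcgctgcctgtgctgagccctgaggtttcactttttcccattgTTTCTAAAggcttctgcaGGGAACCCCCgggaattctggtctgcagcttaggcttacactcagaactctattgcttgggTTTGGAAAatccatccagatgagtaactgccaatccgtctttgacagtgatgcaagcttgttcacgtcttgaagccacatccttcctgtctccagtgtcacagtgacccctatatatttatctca
Nlrp3, start 2: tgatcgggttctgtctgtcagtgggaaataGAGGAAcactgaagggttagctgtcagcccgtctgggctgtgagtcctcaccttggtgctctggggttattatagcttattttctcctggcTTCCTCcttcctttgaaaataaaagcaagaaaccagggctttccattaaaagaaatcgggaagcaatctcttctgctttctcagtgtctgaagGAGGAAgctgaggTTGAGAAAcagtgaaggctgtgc
Il18: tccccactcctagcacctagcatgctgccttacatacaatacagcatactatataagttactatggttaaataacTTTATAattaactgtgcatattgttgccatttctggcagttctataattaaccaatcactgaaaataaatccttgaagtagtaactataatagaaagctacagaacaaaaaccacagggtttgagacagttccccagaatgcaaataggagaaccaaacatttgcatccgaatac

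The motifs were searched on both strands, and positions count back from -1, the last base before the start. TATAAA, the TATA box, ended at -27 in Il1a and at -26 in Il1b, and 12.4% of all 32851 promoter windows held it. Il18 held it on the minus strand, from -175 to -170. GAGGAA, the core bound by PU.1, a factor of myeloid cells encoded by Spi1, was in 23.3% of windows. It stood at -41 to -36 in Il1a and 3 times at start 2 of Nlrp3, on the plus strand from -220 and from -36 and on the minus strand from -129. Casp1, whose window is not printed, held it on the minus strand from -108 to -103. TGANTCA, the AP-1 motif, was in 6.75% of windows, among them Il1a from -12 to -6 and Il1rn from -141 to -135. TTNNGNAA, the C/EBP motif, was in 36.8% of windows, among them Il1a, where it overlapped GAGGAA, Il1b from -91 to -84 and Nlrp3, at start 2 from -23 to -16 and at start 1 from -125 to -118 and, on the minus strand, from -204 to -197. The NF-kB decamer was in 3.9% of windows. It stood on the minus strand at start 1 of Nlrp3, from -186 to -177, and at the second start of Il1r1, which is not printed, from -232 to -223. That the other windows printed have no match says only that this spelling is not in these bases. A match is a description of the sequence and not of binding.

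Total counts per library ranged from 13003154 to 40240733 (median 28090684). Levels are given in CPM, counts relative to the TMM-normalised size of the library, as mean ± SD. Markers of the airway epithelium were higher in airway libraries, with 59589 summed CPM of 3 club cell markers in PBS airways at 3 weeks against 33844 in PBS parenchyma. The airway libraries also held 5 alveolar type II markers at 14418 CPM, against 26093 in parenchyma, so neither tissue was free of RNA of the other. In addition, 4 cardiac muscle markers were at 1019 ± 1077 CPM in PBS airways, against 19.9 ± 2.87 in parenchyma. Genes that overlap members in the annotation were at a mean of 0.758 CPM or less. In tissue RNA, more cells of a type and more RNA per cell cannot be told apart. A gene is called where the adjusted p from limma-voom is under 0.05 with a log2 fold change (log2FC) of at least 1 or at most -1, and passed the test where only the first holds.

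After 3 weeks of HDM, the cytokines Il1a and Il1b, the antagonist Il1rn, the decoy Il1r2 and the sensor Nlrp3 were higher in both tissues, while Il18 was lower. Of the 9 members, 6 were called in airways and 7 in parenchyma, against 24% and 29.6% of all genes tested. All 9 passed the test in both tissues, against 74.6% and 77.7% of genes. Members did not overlap between HDM and PBS libraries in 4 cases in airways (Il1b, Il1rn, Il1r2 and Nlrp3) and in all 9 in parenchyma, against 20.8% and 39.8% of genes.

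Il1b ranged from 13.0 to 36.3 CPM (median 19.8) in PBS airways and from 57.9 to 264 CPM (median 172.7) in HDM airways. In parenchyma it ranged from 22 to 41.9 CPM (median 35.1) and from 214 to 509 CPM (median 267). Every HDM library was above every PBS library of its tissue. The log2FC was 2.82 ± 0.22 (SE, 7.07-fold, adjusted p = 7.4e-15) in airways and 3.21 ± 0.22 (9.23-fold, adjusted p = 6.3e-17) in parenchyma by limma. Il1a, the IL-1 that needs no cut to be active, rose too. It went from 7.34 ± 2.4 to 28.9 ± 14.8 CPM in airways, where 2 of 10 HDM libraries lay within the PBS range, and from 13.4 ± 1.72 to 61.5 ± 22.1 CPM in parenchyma, where none did. Its log2FC was 1.81 ± 0.28 (3.51-fold) and 2.06 ± 0.24 (4.17-fold).

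Il18 went the other way. In parenchyma it ranged from 24.9 to 47.7 CPM (median 33.9) in PBS and from 12.6 to 18.0 CPM (median 14.7) in HDM libraries, with no overlap. The log2FC was -1.32 ± 0.17 (0.402 times, adjusted p = 2.5e-09). In airways it ranged from 9.03 to 26.6 CPM (median 19.1) in PBS and from 4.7 to 19.4 CPM (median 7.27) in HDM libraries, and the groups overlapped. The log2FC there was -1.10 ± 0.20 (0.467 times, adjusted p = 5.5e-06). Markers of alveolar type II cells, summed, also were lower in HDM parenchyma (18217 ± 2211 against 26093 ± 4130 CPM), and their part in the lower Il18 was not tested.

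**Figure D1:**
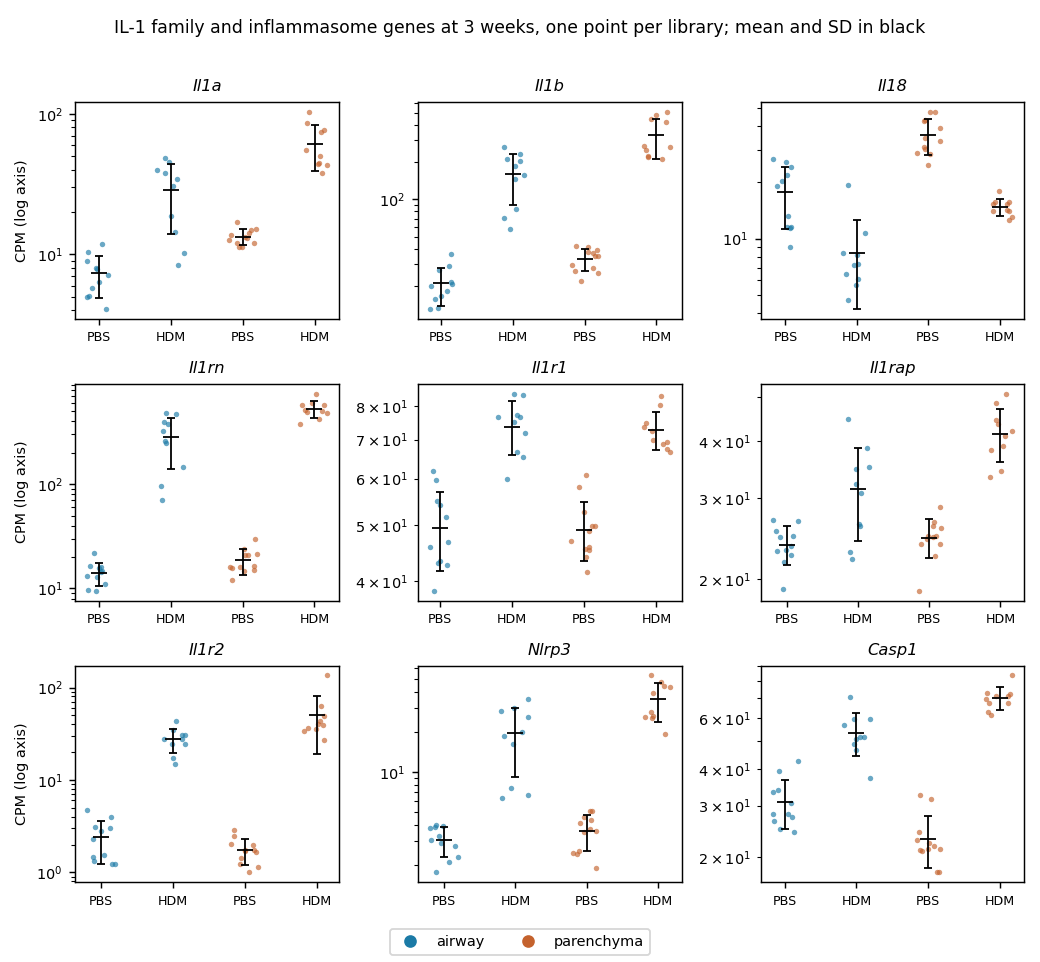
CPM of each member at 3 weeks on a log axis, 1 point per library, airway in blue and parenchyma in orange, with mean and SD in black. Il1b, Il1rn, Il1r2 and Nlrp3 do not overlap between HDM and PBS in either tissue, and Il18 is the member with lower levels in HDM.

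Il1rn, the antagonist, had the largest log2FC of the members in both tissues, with Il1r2 close to it in parenchyma (4.66 ± 0.36). Members were not tested against each other. Il1rn ranged from 9.52 to 21.8 CPM (median 14.4) in PBS airways and from 70.4 to 479 CPM (median 294) in HDM airways. In parenchyma it ranged from 12.1 to 30.1 CPM (median 16.3) and from 382 to 739 CPM (median 509). The HDM libraries spread more in airways than in parenchyma but stayed above all PBS libraries in both. The log2FC was 4.10 ± 0.24 (17.1-fold, adjusted p = 1.3e-18) and 4.78 ± 0.24 (27.5-fold, adjusted p = 6.1e-21).

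The receptor genes all rose, by different amounts. Il1r1, the signalling receptor, was at 49.3 ± 7.62 CPM in PBS and 73.6 ± 7.77 CPM in HDM airways, and at 49.1 ± 5.72 and 72.6 ± 5.48 CPM in parenchyma. This is a log2FC of 0.55 ± 0.07 and 0.51 ± 0.07, below the size needed for a call. The co-receptor Il1rap likewise had a log2FC of 0.34 ± 0.09 (adjusted p = 0.00079) and 0.68 ± 0.09 (adjusted p = 5.4e-09). The decoy Il1r2 was low in PBS mice, from 1.22 to 4.68 CPM (median 2.3) in airways and from 0.998 to 2.91 CPM (median 1.72) in parenchyma. With HDM it ranged from 15.0 to 43.4 CPM (median 27.7) and from 27.3 to 135.1 CPM (median 39.8). No library overlapped, and the log2FC was 3.56 ± 0.31 (11.8-fold, adjusted p = 2.4e-13) and 4.66 ± 0.36 (25.3-fold, adjusted p = 2e-15).

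Both inflammasome members rose. Nlrp3 ranged from 1.76 to 3.98 CPM in PBS and from 6.31 to 34.9 CPM (median 19.3) in HDM airways, a log2FC of 2.45 ± 0.33 (5.47-fold, adjusted p = 1.4e-08). In parenchyma it ranged from 1.89 to 5.08 and from 19.3 to 52.9 CPM (median 33.8), a log2FC of 3.17 ± 0.32 (9.03-fold, adjusted p = 9.5e-12). Casp1 differed between tissues. It went from 30.9 ± 5.92 to 53.2 ± 8.94 CPM in airways (log2FC 0.75 ± 0.09) and from 23.01 ± 4.64 to 69.99 ± 6.25 CPM in parenchyma (log2FC 1.56 ± 0.10, adjusted p = 7.9e-18).

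The HDM effect was tested for a difference between tissues, which only Casp1 passed of the 9 members (airway less parenchyma -0.80 ± 0.14, adjusted p = 0.00015), against 17.3% of genes. For Il1r2 this difference was -1.10 ± 0.47 (adjusted p = 0.1). With the round of 20 library codes as a block it was -1.21 (adjusted p = 0.013), and Il1r2 passed with edgeR and DESeq2 too. At 3 weeks without HDM, 4 members passed the test between tissues, against 56.1% of genes. Il18 (log2FC -1.09), Il1a (-0.93) and Il1b (-0.69) were lower and Casp1 (0.44) higher in airways than in parenchyma. At 11 weeks in PBS AIR mice 5 members passed, against 56.4% of genes, with Il1a, Il18, Il1rn and Nlrp3 lower in airways (log2FC -1.18, -0.85, -0.90 and -0.74) and Casp1 higher (0.53).

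To compare levels between genes, counts were divided by exon length and scaled to the same sum in every library. This length joins all annotated exons of a gene. It can exceed that of the transcripts present, and the order of genes depends on it. On this per-length scale, PBS airways at 3 weeks ran from Casp1 (35.5 ± 7.24) over Il18 (29.6 ± 11.3), Il1b (19.1 ± 7.57) and Il1r1 (13.4 ± 2.66) to Il1a (6.43 ± 2.24). Il1rn (4.42 ± 1.28), Il1rap (3.61 ± 0.453), Il1r2 (2.21 ± 1.2) and Nlrp3 (1.31 ± 0.377) followed. The steps from Il1r1 to Il1a and from Il1rap to Il1r2 were larger than the SD of either gene, and the other neighbours in this order did not differ beyond the larger of their SDs. In HDM airways the order was led by Il1b (183.2 ± 85), Il1rn (111.9 ± 58.9) and Casp1 (76.1 ± 11.9), and Il18 (17.4 ± 7.93) had gone from the second to the seventh place. Il1rap (5.96 ± 1.5) was last.

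At 11 weeks Il1b, Il1rn, Il1r2 and Nlrp3 were again higher with HDM in AIR mice in both tissues, and Il18 did not pass the test in either. Of the 9 members, 5 were called in each tissue, against 19.1% of genes in airways and 19.2% in parenchyma, and 7 and 8 passed, against 61.1% and 59.5%. Libraries did not overlap for Il1a, Il1b, Il1rn, Il1r2 and Nlrp3 in airways and for Il1b, Il1rn, Il1r2, Nlrp3 and Casp1 in parenchyma, against 16.5% and 22.8% of genes. Il1rn ranged from 4.13 to 17.7 CPM (median 11.8) in PBS AIR airways and from 60.1 to 216 CPM (median 116.9) in HDM AIR airways (log2FC 3.64 ± 0.28, 12.5-fold, adjusted p = 9.8e-25). In parenchyma it ranged from 14.9 to 25.6 CPM (median 18.0) and from 80.5 to 404 CPM (mean 199.7) (log2FC 3.32 ± 0.25, 9.96-fold, adjusted p = 1.3e-24). The antagonist again had the largest log2FC of the members in both tissues, with Il1r2 close to it in parenchyma (3.09 ± 0.35). This order was not tested. Il1b ranged from 17.8 to 43.5 CPM in PBS AIR and from 49.6 to 332.6 CPM (median 91.4) in HDM AIR parenchyma (log2FC 2.15 ± 0.27, 4.45-fold). The 332.6 CPM came from 1 library, X10, and the next highest library was at 192.5 CPM. Without X10 and X166, a library of PBS AIR parenchyma, the log2FC was 2.06 (adjusted p = 1.2e-10).

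Il1r2 (log2FC 2.95 ± 0.34 in airways, 3.09 ± 0.35 in parenchyma) and Nlrp3 (1.88 ± 0.24 and 1.54 ± 0.21) rose in both tissues at 11 weeks, as did Casp1 (0.90 ± 0.11 and 1.5 ± 0.11). The difference of the Casp1 effect between tissues was -0.60 ± 0.16 (adjusted p = 0.0018), and Casp1 alone of the 9 members passed this test, against 27.6% of genes. Without X10 and X166 Il1a passed too (0.65, adjusted p = 0.046). Il18 was at 12.2 ± 4.9 and 12.3 ± 7.23 CPM in PBS AIR and HDM AIR airways (log2FC -0.05, adjusted p = 0.88) and at 21.8 ± 2.43 and 17.7 ± 6.17 CPM in parenchyma (log2FC -0.29, adjusted p = 0.22). The groups overlapped in both tissues.

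The HDM effect at 11 weeks was set against that at 3 weeks in 1 fit of all libraries. In parenchyma 8 members passed this test, against 42.4% of genes. The rise was smaller at 11 weeks for Nlrp3 (difference in log2FC -1.76 ± 0.35), Il1r2 (-1.70 ± 0.49), Il1a (-1.62 ± 0.27), Il1rn (-1.59 ± 0.36) and Il1b (-1.18 ± 0.37), and Il18 moved the other way (0.90 ± 0.28, adjusted p = 0.0058). Il1rap (-0.58) and Il1r1 (-0.31) passed too, and Casp1 did not (-0.18 ± 0.15, adjusted p = 0.35). In airways 3 members passed, against 28.4% of genes, namely Il18 (1.00 ± 0.33, adjusted p = 0.015), Il1rap (-0.38) and Il1r1 (-0.31). Without X10 and X166 Il1a also passed there (-0.77, adjusted p = 0.049). The mice at the 2 times also differed in how often and how long HDM was given, and week and schedule cannot be told apart.

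**Figure D2:**
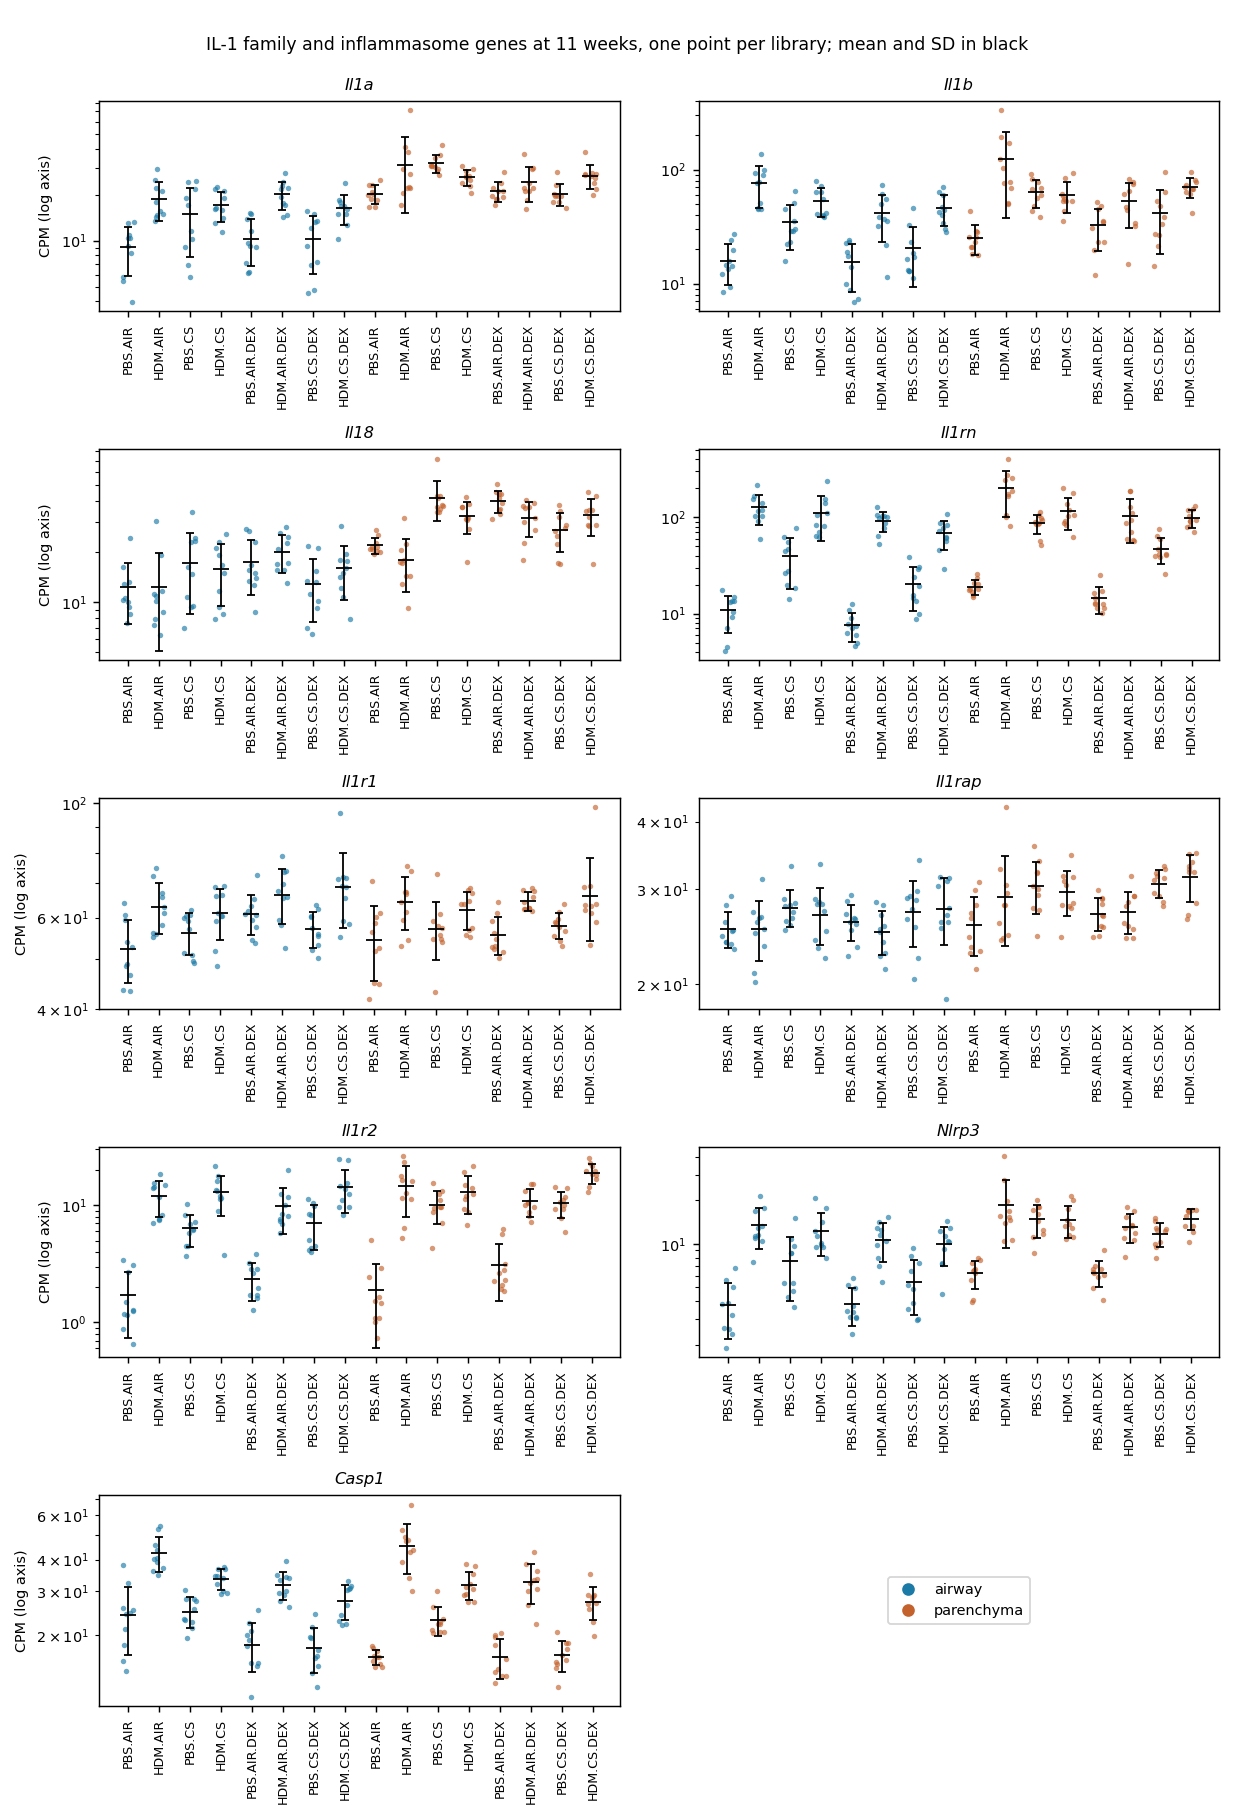
CPM of each member at 11 weeks on a log axis, 1 point per library, with the 8 airway groups (blue) to the left of the 8 parenchyma groups (orange) and mean and SD in black. Il1rn and Il1r2 are higher in all HDM and CS groups than in PBS AIR, and Il18 in parenchyma is higher in PBS CS (41.8 ± 11.1) and PBS AIR DEX (40.2 ± 6.13) than in PBS AIR (21.8 ± 2.43).

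CS alone raised the antagonist Il1rn and the decoy Il1r2 in both tissues and raised Il18 in parenchyma. In PBS CS airways 3 of 9 members were called and 5 passed, against 2.78% and 13.7% of genes. In parenchyma 4 were called and 8 passed, against 5.33% and 35.9%. Libraries did not overlap for Il1r2 in airways and for Il1a, Il18, Il1rn, Nlrp3 and Casp1 in parenchyma, against 0.784% and 8.43% of genes. Il1r2 ranged from 0.655 to 3.42 CPM (median 1.27) in PBS AIR and from 3.72 to 10.4 CPM (median 6.2) in PBS CS airways (log2FC 2.02 ± 0.36, 4.06-fold, adjusted p = 7.1e-06). In parenchyma it ranged from 0.736 to 5.01 CPM (median 1.49) and from 4.31 to 15.6 CPM (median 9.64) (log2FC 2.58 ± 0.36, 5.96-fold, adjusted p = 9.2e-10). The 2 parenchyma groups overlapped through 1 PBS AIR library, X166, at 5.01 CPM, and without X10 and X166 the log2FC was 2.77 (adjusted p = 5.1e-10). Il1rn ranged from 14.2 to 77.4 CPM (median 36.4) in PBS CS airways and from 51.4 to 113.3 CPM (median 87.6) in PBS CS parenchyma, with log2FC of 1.79 ± 0.28 (3.46-fold) and 2.18 ± 0.25 (4.53-fold).

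The cytokines rose less with CS. Il1b had a log2FC of 1.07 ± 0.29 (adjusted p = 0.0052) in airways and 1.34 ± 0.27 (adjusted p = 2.6e-05) in parenchyma, where it went from 25.3 ± 7.48 to 63.5 ± 17.5 CPM. Il1a had 0.62 ± 0.21 (adjusted p = 0.03) and 0.67 ± 0.17 (adjusted p = 0.00061). Il18 in parenchyma ranged from 19.3 to 27.1 CPM (median 21.2) in PBS AIR and from 34.4 to 71.9 CPM (median 37.7) in PBS CS libraries, without overlap, and its log2FC was 0.92 ± 0.19 (1.9-fold, adjusted p = 3.2e-05). Summed alveolar type II markers were at 22641 ± 3119 CPM in PBS AIR and 22981 ± 2964 CPM in PBS CS parenchyma, and their part was not tested. In airways Il18 had a log2FC of 0.38 and did not pass. Nlrp3 rose in both tissues (0.95 ± 0.25 and 1.24 ± 0.21), Casp1 passed in parenchyma (0.49 ± 0.12, adjusted p = 0.00047) and not in airways (0.10), and Il1r1 passed in neither (0.10 and 0.09).

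**Figure D3:**
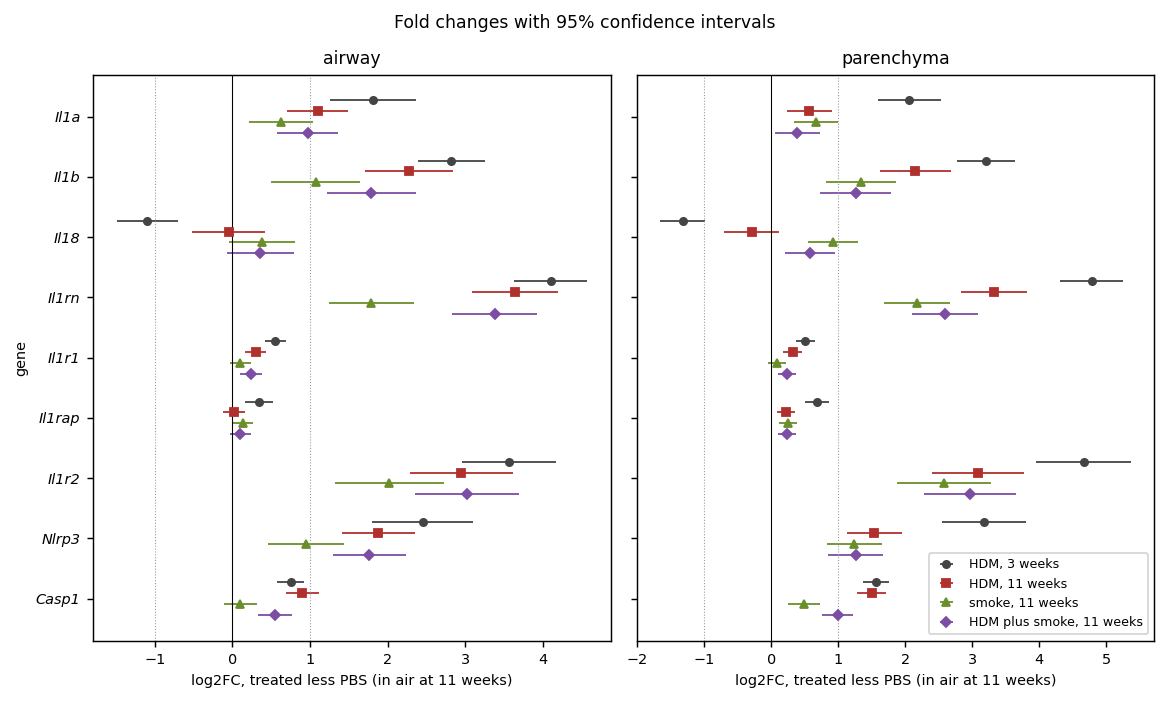
log2FC of each member with 95% confidence intervals in airways and parenchyma, for HDM at 3 weeks and for HDM, CS and both at 11 weeks against PBS (in AIR at 11 weeks), with dotted lines at -1 and 1. Il1rn and Il1r2 lie farthest to the right in each tissue, and Il18 is below 0 in HDM at 3 weeks and above 0 in CS parenchyma (0.92).

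With HDM and CS together, Il1b, Il1rn, Il1r2 and Nlrp3 were called higher in both tissues. In HDM CS mice 4 of 9 members were called in each tissue, against 13.1% of genes in airways and 11.1% in parenchyma, and 7 and 9 passed, against 49% and 47.4%. Libraries did not overlap with PBS AIR for Il1b, Il1rn, Il1r2 and Nlrp3 in airways and for Il1rn, Il1r2, Nlrp3 and Casp1 in parenchyma, against 9.12% and 16% of genes. Il1rn ranged from 62.37 to 236.8 CPM (median 93.84) in airways and from 63.01 to 198.7 CPM (median 103.5) in parenchyma of HDM CS mice (log2FC 3.38 ± 0.28 and 2.59 ± 0.25). Il1r2 was at 13.0 ± 4.92 and 13.0 ± 4.61 CPM (log2FC 3.02 ± 0.34 and 2.96 ± 0.35). The HDM, CS and combined comparisons share the PBS AIR libraries.

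The combination was compared with HDM alone. CS added to HDM lowered Casp1 in airways (log2FC -0.35 ± 0.10, adjusted p = 0.0089), the 1 member that passed there, against 16.2% of genes. In parenchyma 4 members passed, against 24.1% of genes. Il1b (-0.89 ± 0.26, adjusted p = 0.0057), Il1rn (-0.73 ± 0.23, adjusted p = 0.013) and Casp1 (-0.51 ± 0.10, adjusted p = 4.6e-05) were lower and Il18 was higher (0.88 ± 0.20, adjusted p = 0.00029) in HDM CS than in HDM AIR mice. Il1b went from 124.9 ± 87.6 to 59.3 ± 17.8 CPM and Il18 from 17.7 ± 6.17 to 32.6 ± 7.02 CPM, and in both cases the groups overlapped. Without the libraries X10 and X166 the log2FC of Il1rn was -0.60 (adjusted p = 0.057), and it no longer passed.

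The reverse comparison took HDM added to CS. In airways 5 members passed, against 33.1% of genes, with log2FC of 1.59 ± 0.23 for Il1rn, 1.00 ± 0.24 for Il1r2, 0.81 ± 0.20 for Nlrp3, 0.72 ± 0.26 for Il1b and 0.45 ± 0.11 for Casp1. In parenchyma Casp1 alone passed (0.49 ± 0.11, adjusted p = 0.00045), against 9.94% of genes. There Il1b was at 63.5 ± 17.5 CPM in PBS CS and 59.3 ± 17.8 CPM in HDM CS libraries.

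The HDM by CS interaction, the log2FC of both less the sum of each alone, was negative for the 6 members that passed in each tissue, against 19.1% of genes in airways and 36% in parenchyma. In airways 4 and in parenchyma 5 members were called, against 5.17% and 10.5%. It was -2.05 ± 0.36 (adjusted p = 7.4e-06) in airways and -2.91 ± 0.34 (adjusted p = 2e-12) in parenchyma for Il1rn, and -1.96 ± 0.42 and -2.71 ± 0.41 for Il1r2. For Il1b it was -1.55 ± 0.39 and -2.23 ± 0.38, for Nlrp3 -1.07 ± 0.31 and -1.52 ± 0.27, for Casp1 -0.45 ± 0.15 and -1.0 ± 0.16, and for Il1a -0.74 ± 0.27 and -0.85 ± 0.23. On the log2 scale the effects of HDM and CS on these genes were thus less than additive. Il18, Il1r1 and Il1rap did not pass in either tissue.

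**Figure D4:**
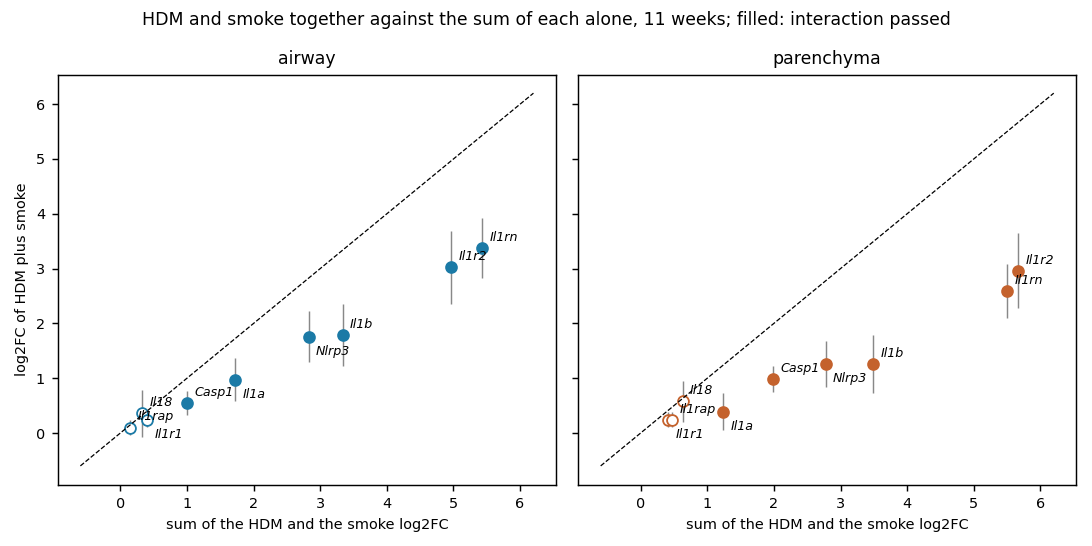
log2FC of HDM plus CS (vertical axis, bars of 95% confidence) against the sum of the log2FC of HDM and of CS alone (horizontal axis) at 11 weeks, 1 point per member and tissue. The dashed line marks an additive effect, and the filled points, the 6 members whose interaction passed in each tissue, lie below it.

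DEX in the last week lowered Il1b in HDM AIR mice of both tissues, and Il1rn was still higher with HDM under DEX. In HDM AIR airways 3 members passed, against 28.6% of genes. Il1b ranged from 44.8 to 138.2 CPM (median 77.2) without and from 11.3 to 73.4 CPM (median 37.7) with DEX, with overlap (log2FC -0.96 ± 0.26, 0.513 times, adjusted p = 0.0022). Casp1 fell (-0.44 ± 0.10) and Il18 rose (0.79 ± 0.22, adjusted p = 0.0038). In HDM AIR parenchyma 4 passed, against 28.5% of genes. Il1b ranged from 49.6 to 332.6 CPM (median 91.4) without and from 14.9 to 82.2 CPM (median 53.9) with DEX (log2FC -1.15 ± 0.26, adjusted p = 0.00027). Il1rn (-0.96 ± 0.23, adjusted p = 0.00063) and Casp1 (-0.46 ± 0.11) were lower and Il18 was higher (0.90 ± 0.20, adjusted p = 0.00017). Without X10 and X166 the log2FC of Il1b was -0.96 (adjusted p = 0.0026), so that it passed and was no longer called.

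In PBS AIR mice DEX raised Il18 in parenchyma. It ranged from 19.3 to 27.1 CPM (median 21.2) without and from 31.5 to 50.9 CPM (median 40.5) with DEX, and the groups did not overlap, which held for 4.44% of genes. The log2FC was 0.88 ± 0.19 (1.84-fold, adjusted p = 0.00015), and Il18 was the 1 member that passed there, against 22.6% of genes. Alveolar type II markers were also higher with DEX in these libraries (33126 ± 2114 against 22641 ± 3119 summed CPM of 5 markers), and their part was not tested. In PBS AIR airways 2 members passed, against 14.9% of genes, Casp1 (-0.35 ± 0.11) and Il1r1 (0.25 ± 0.07).

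In PBS CS parenchyma the direction for Il18 was the reverse. It went from 41.8 ± 11.1 to 26.97 ± 7.04 CPM with DEX (log2FC -0.66 ± 0.18, adjusted p = 0.0062), with overlap. The PBS CS mean includes library X173, at 71.9 CPM, with the others up to 43.2 CPM. In airways Il18 did not pass with DEX in PBS CS (log2FC -0.35, adjusted p = 0.34) or HDM CS mice (0.01, adjusted p = 0.99). The effect of DEX on Il18 differed between PBS CS and PBS AIR parenchyma by -1.54 ± 0.26 (adjusted p = 2.1e-05). Alveolar type II markers were higher with DEX in both (30592 ± 5065 against 22981 ± 2964 CPM in PBS CS), and their part was not tested. Il1rn (-0.91 ± 0.23), Il1b (-0.75 ± 0.26), Il1a (-0.68 ± 0.17) and Casp1 (-0.47 ± 0.12) also were lower with DEX in PBS CS parenchyma, 5 members in all, against 16.9% of genes. In PBS CS airways 2 passed, against 11.3% of genes, Il1rn (-0.87 ± 0.25) and Casp1 (-0.48 ± 0.11). In HDM CS mice Il1rn (-0.67 ± 0.23, adjusted p = 0.043) and Casp1 (-0.32 ± 0.10, adjusted p = 0.034) passed in airways, against 9.3% of genes. In parenchyma, where 7.86% of genes passed, the lowest adjusted p of the 9 members was 0.055, for Il1r2 (0.58 ± 0.20), which passed without X10 and X166 (adjusted p = 0.047), and Il18 had a log2FC of 0.00.

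The effect of DEX on Il1b differed between HDM AIR and PBS AIR parenchyma by -1.43 ± 0.38 (adjusted p = 0.0071). Il1b was at 25.3 ± 7.48 CPM in PBS AIR and 32.3 ± 13.2 CPM in PBS AIR DEX, against 124.9 ± 87.6 and 53.1 ± 22.4 CPM in HDM AIR and HDM AIR DEX. Il1rn under DEX was still 12.1 times (log2FC 3.60 ± 0.29) its PBS AIR DEX level in HDM airways and 6.9 times (2.79 ± 0.26) in parenchyma. In all, 6 members passed in each tissue for HDM against PBS under DEX, against 49.7% of genes in airways and 42.2% in parenchyma.

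The balance of antagonist and cytokine shifted in each exposure. The per-length ratio of Il1rn to Il1b was 0.242 ± 0.0541 in PBS and 0.593 ± 0.137 in HDM airways at 3 weeks, and 0.197 ± 0.0528 and 0.586 ± 0.128 in parenchyma. No HDM library had a ratio as low as any PBS library of its tissue. At 11 weeks the ratio in airways was 0.232 ± 0.0585 in PBS AIR, 0.612 ± 0.208 in HDM AIR, 0.384 ± 0.118 in PBS CS, 0.691 ± 0.149 in HDM CS and 0.880 ± 0.333 in HDM AIR DEX libraries. Il1b per length stayed above Il1rn in every group mean. This rests on joined exon lengths of 1907 bases for Il1b and 5535 for Il1rn. In CPM, Il1rn was above Il1b in both HDM groups at 3 weeks. The ratio of the decoy Il1r2 to the receptor Il1r1 went from 0.159 ± 0.0619 to 1.25 ± 0.337 in airways at 3 weeks. In parenchyma it went from 0.120 ± 0.0365 to 2.33 ± 1.46. Per length, with 1908 bases for Il1r2 and 6363 for Il1r1, the decoy thus exceeded the receptor in the mean. In CPM it stayed below the receptor in the mean. At 11 weeks the ratio reached 0.643 ± 0.241 in HDM AIR airways and 0.753 ± 0.319 in HDM AIR parenchyma. The group mean was highest in HDM CS DEX parenchyma (0.962 ± 0.149). Ratios have no test here.

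**Figure D5:**
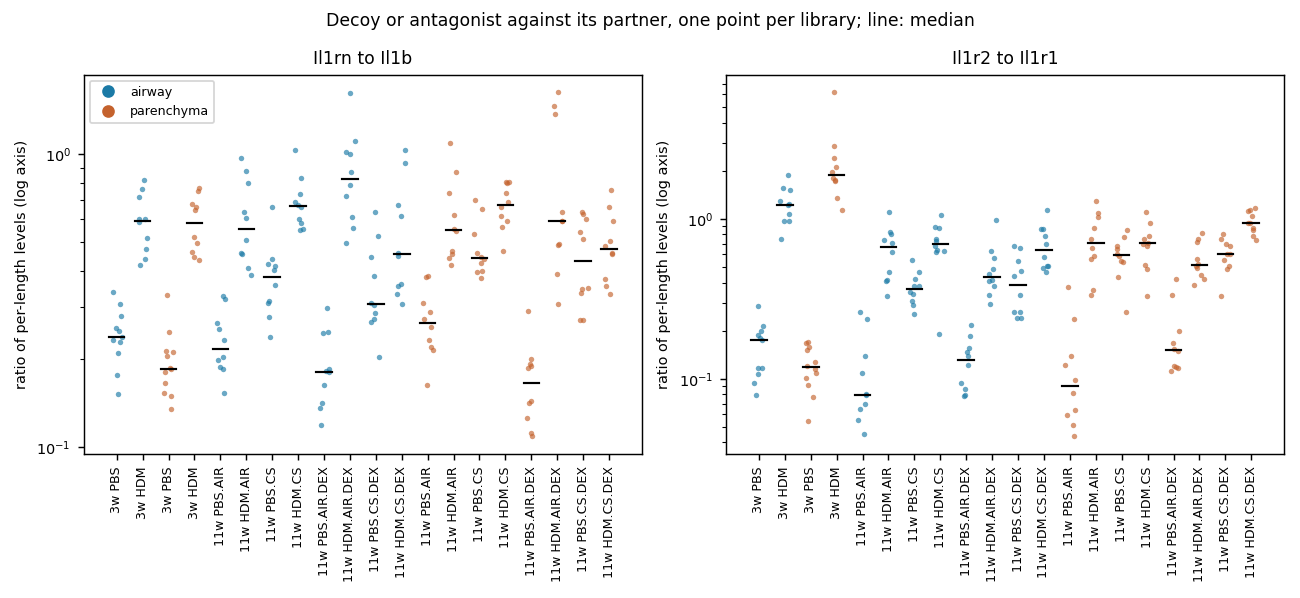
Ratios of per-length levels on log axes, 1 point per library with the group median as a line: Il1rn to Il1b and Il1r2 to Il1r1 in the 20 groups, airway in blue and parenchyma in orange. Both ratios are higher in HDM than in PBS at 3 weeks without overlap, and PBS AIR and PBS AIR DEX lie lowest at 11 weeks.

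Over the 20 groups, the levels of most members went together and Il18 stood apart. The Pearson correlation of log2 CPM over the 20 group means was 0.95 for Il1b with Il1rn and for Il1rn with Nlrp3, and 0.93 for Il1r2 with Nlrp3. Among the 8 members without Il18 it ranged from 0.47 (Il1rap with Casp1) to 0.95. For Il18 it lay between -0.42 (with Casp1) and 0.28 (with Il1a). These group means share controls and treatments, so they describe the groups only. Among 17298 genes, those most like Il1b were Capza1 (0.991), Il1f9 (0.989), which is the IL-36 gamma gene, and Arpc4 (0.981). Those most like Il1rn were Ifngr2 (0.986), a subunit of the interferon gamma receptor, Lcp2 (0.984), a signalling adaptor of leukocytes, and Cxcl3 (0.984), a chemokine for neutrophils. Nlrp3 was most like Spi1, Lcp1 and Cd44 (0.979 each), genes widely used in leukocytes. Il1r2 was most like Msr1 (0.981), a macrophage scavenger receptor, Slc38a6 (0.980) and Clec5a (0.976), a receptor of myeloid cells. Il1a was most like Casp8 (0.976), Plaur (0.960) and Snap23 (0.959), and Casp1 most like Gm13212 (0.984), Cmtm7 (0.980) and Mir155hg (0.979). For Il18 the values were lower, with Ier3 (0.943), Sptlc1 (0.926) and Tmbim1 (0.926). Il1r1 followed Tbc1d14 (0.942), Bcl3 (0.942) and Slc39a14 (0.940), and Il1rap followed Tspo (0.909), Tcp10b (0.905) and Ankrd49 (0.900). Most of these genes were not among the nearest when Spearman replaced Pearson. Within groups their r with the member ranged from -0.03 (Tspo with Il1rap) to 0.78 (Il1f9 with Il1b). Between members, the pattern within groups was not that of the group means. There Casp1 stood apart, with r from -0.14 (with Il1r1) to 0.09 (with Il1b and with Il1rn). For Il18 it lay between -0.25 (with Il1r1) and 0.5 (with Il1a). Among the members without Il18 and Casp1 it ranged from 0.12 (Il1a with Il1r1) to 0.75 (Il1rn with Nlrp3). These relations between members were not tested.

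Other genes of the pathway were taken from 4 lists. Of 17 response genes known to be induced by IL-1, 12 in airways and 13 in parenchyma were called higher with HDM at 3 weeks and none lower, against 12.1% and 14.5% of all genes called higher, with median log2FC of 1.90 and 2.89, where all genes had -0.07 and -0.13. In parenchyma Saa3, an acute phase protein, had a log2FC of 5.28 ± 0.33, the neutrophil chemokines Cxcl3 and Cxcl5 had 5.05 ± 0.48 and 4.56 ± 0.34, and Lcn2, an iron-binding protein of neutrophils and epithelium, had 4.10 ± 0.21. With CS, 7 and 12 of the 17 were called higher, against 1.73% and 4.21% of all genes, among them Cxcl5 (4.80 ± 0.58), Cxcl1 (4.08 ± 0.40) and Saa3 (4.08 ± 0.36) in parenchyma. With HDM and CS, 9 and 13 were called higher, against 7.33% and 8.67% of all genes, and the interaction was called negative for 9 and 12, against 3.5% and 7.11%. Many of these genes are also induced by other signals.

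Of 8 further ligands and receptors of the IL-1 family that were tested, 3 were called higher with HDM at 3 weeks in each tissue, where 12.1% of all genes in airways and 14.5% in parenchyma were. In parenchyma these were Il1f9 (log2FC 3.72 ± 0.29), the soluble IL-18 inhibitor Il18bp (3.06 ± 0.21) and the alarmin Il33 (1.46 ± 0.13). The inhibitor of IL-18 thus rose while Il18 fell. With CS at 11 weeks, 1 of the 8 was called in each tissue, Il1f9 in parenchyma with 1.81 ± 0.34, and with HDM and CS again 1 in each, Il1f9 in airways with 2.5 ± 0.38. Of all genes, 1.73% in airways and 4.21% in parenchyma were called higher with CS and 7.33% and 8.67% with both. Il18bp was looked at further after its values were seen. It had a log2FC of 0.09 ± 0.19 (adjusted p = 0.77) with CS in parenchyma, where Il18 rose, and of -1.18 ± 0.15 (adjusted p = 1.2e-09) for CS added to HDM there, where Il18 was also higher.

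Of 16 further inflammasome genes, 9 were called higher in each tissue with HDM at 3 weeks and none lower, against 12.1% and 14.5% of all genes. Mefv, which encodes the sensor pyrin, had a log2FC of 4.21 ± 0.31, Naip2, a sensor of bacterial proteins, 2.15 ± 0.12 and Ninj1, needed for membrane rupture, 2.12 ± 0.13 in parenchyma, and Nlrc4, the partner of the NAIP sensors, 1.63 ± 0.13 in airways. Naip genes are near copies of each other, so their counts are uncertain. With CS 1 of 16 was called higher in each tissue (Mefv 1.37 ± 0.34 in parenchyma), against 1.73% and 4.21% of all genes. With HDM and CS 6 in each were, against 7.33% and 8.67% of all genes (Mefv 2.65 ± 0.32 and Naip2 1.36 ± 0.10 in airways, Naip1 1.33 ± 0.31 in parenchyma). Of 19 genes of IL-1 receptor signalling, 2 in airways and 5 in parenchyma were called higher with HDM at 3 weeks. The airway count is near the 12.1% of all genes called higher there, and 14.5% were in parenchyma. The genes called included the NF-kB brake Tnfaip3 (2.02 ± 0.13), the inhibitory kinase Irak3 (1.59 ± 0.16), Nfkb1 (1.36 ± 0.08) and the adaptor Myd88 (1.25 ± 0.08) in parenchyma. With CS, Nfkbiz, a nuclear co-factor of NF-kB, was the 1 gene of the 19 called in parenchyma (1.11 ± 0.08), and with both exposures too (1.44 ± 0.08), against 4.21% and 8.67% of all genes.

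With DEX in HDM AIR parenchyma, 7 of the 17 response genes passed lower and 1 higher, against 16.2% and 12.2% of all genes, among them Csf3, the granulocyte growth factor, at a log2FC of -2.27 ± 0.63 and the collagenase Mmp13 at -2.17 ± 0.35. Of the 8 other family members 4 passed lower, among them Il18bp (-1.38 ± 0.16), Il1f9 (-1.36 ± 0.28) and Il1rl1, the receptor of IL-33 (-1.03 ± 0.20), and of 16 inflammasome genes 9 passed lower, among them Mefv (-1.61 ± 0.25). In PBS AIR parenchyma 5 response genes passed higher and none lower, against 10.6% of all genes that passed higher, among them the chemokine Cxcl1 (1.86 ± 0.42, adjusted p = 0.00035).

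Summed markers of macrophages, neutrophils and eosinophils rose with HDM at 3 weeks, as did the members other than Il18. Over 13 macrophage markers the summed CPM went from 1033 ± 184.6 to 6221 ± 3675 in airways and from 1010 ± 298 to 12186 ± 7735 in parenchyma with HDM at 3 weeks. Most of this sum was Chil3, which rises in macrophages with allergic stimuli (group means of 401 and 9576 CPM in parenchyma). Over 13 neutrophil markers it went from 996 ± 312 to 2179 ± 739 and from 493 ± 86.6 to 2117 ± 850. In airways most of it was Ltf, at 751 ± 348 CPM in PBS airways against 28.4 ± 17.1 in PBS parenchyma, which glands also make, while S100a8 went from 48.4 ± 17.4 to 244 ± 83.2. At 11 weeks the neutrophil sum in parenchyma was 315.2 ± 141.3 in PBS AIR, 963 ± 385 in HDM AIR, 642.4 ± 161.3 in PBS CS and 735 ± 190 in HDM CS. The part of these cells in the members' changes was not tested. Over 5 eosinophil markers the sum went from 2.766 ± 1.1 to 20.12 ± 8.12 CPM in airways and from 2.964 ± 1.64 to 18.81 ± 8.2 CPM in parenchyma with HDM at 3 weeks. The highest group means were 14.6 CPM for the chemokine receptor Ccr3, 5.97 CPM for the granule protein Prg2 and 0.544 CPM for the peroxidase Epx.

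Within groups, after the mean of each group was taken out, relations of the 9 members with 3 marker scores were tested in 2 tissues. A score was the mean of log2(CPM + 1) over the markers of a list, and not their summed CPM. Members were taken as log2(CPM + 1) too. The 54 relations were tested by permuting libraries within groups. By r, 34 passed as positive and 3 as negative relations at an adjusted permutation p under 0.05. The share of all genes with such relations was not computed, so this count does not set the members apart. The negative relations were Casp1 with the neutrophil score (r = -0.30) and with the alveolar type II score (r = -0.44) in airways. The third was Il1r1 with the macrophage score in parenchyma (r = -0.48). In the next values 1e-05 is the smallest p that 100000 permutations give, and 2.3e-05 and 2.5e-05 are its adjusted values for r and rho. The neutrophil score went with Il1b at r = 0.80 and rho = 0.80 over 101 airway libraries (permutation p = 1e-05 for each). Over the parenchyma libraries, 1 more in number, both were 0.74 (permutation p = 1e-05 for each). Without the 2 farthest libraries r was 0.78 and 0.74. The same score went with Il1r2 at r = 0.58 and 0.70 (rho 0.58 and 0.65, permutation p = 1e-05 for each). Without the 2 farthest libraries r was 0.57 and 0.63. The macrophage score went with Il18 at r = 0.62 and 0.57 (rho 0.62 and 0.54, permutation p = 1e-05 for each). Without the 2 farthest libraries r was 0.62 and 0.54. With Il1a and Il1rn this score gave r = 0.66 for each in airways, and 0.33 and 0.37 in parenchyma. The alveolar type II score went with Il1a in airways (r = 0.81, rho = 0.81, 0.81 without the 2 farthest, permutation p = 1e-05). In parenchyma it did not (r = 0.10, rho = 0.14, 0.09 without the 2 farthest, adjusted permutation p = 0.34 and 0.21). With Il18 it gave r = 0.68 in airways (rho 0.74, 0.71 without the 2 farthest, permutation p = 1e-05) and 0.24 in parenchyma (rho 0.31, 0.26 without the 2 farthest, adjusted permutation p = 0.046 and 0.0044). Whether these relations differ between tissues was not tested.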

How the data were processed

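RNA was extracted with TRI Reagent from dissected airways and parenchyma and purified on columns. Reads were aligned to mm10 with annotation M21, and the submitters' processing notes name STAR 2.5.1b, RSEM 1.2.31, kallisto 0.44.0 and bcl2fastq 2.20.0.422. The authors deposited expected counts per gene, of which 20.3% of values above 0 were not whole, and these were rounded. Which quantifier made the table, and whether strand was used, is not given in the sources used here. Of 43346 row identifiers, 42462 matched a GENCODE M21 symbol without the version suffix, and 23106 with it. No 2 libraries of a group agreed within sampling noise (lowest chi-square per degree of freedom 8.49). Counts were analysed with limma 3.58.1 and edgeR 4.0.16 in R 4.3.3, by voom on TMM-normalised libraries. Genes were kept where 9 or more libraries exceeded a CPM that corresponds to 10 counts at median depth. Separate fits of all groups were made at 3 weeks (17377 genes) and 11 weeks (18250 genes), and of all 203 libraries (18528 genes) for 11 against 3 weeks. P-values were adjusted over all genes tested by the Benjamini-Hochberg method. The scripts were tested on simulated data. Depth limits low members such as Il1r2 in PBS mice. Promoter windows came from RefSeq (GRCm38.p6, 27025 symbols).

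Named pathway genes were the up to 4 genes of each list with the largest called log2FC with HDM at 3 weeks, and up to 3 for CS, HDM with CS and DEX. For each member the 3 genes with the highest correlation were named. The members and lists were chosen with earlier results of these data known. Results were recomputed with DESeq2 1.42.0 and its size factors, edgeR's quasi-likelihood test, other filters, quality weights, all libraries in 1 fit, and 1 tissue alone. Blocks from the library codes and omission of libraries were added after seeing the data.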

Additional observations from a re-analysis of the deposited data

Results flagged for a closer look

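Of the sets of 10 libraries, 1 per member and group, 19 (11.7%) held a library whose gap to its nearest neighbour passed Dixon's 95% limit. That limit gives about 1 in 20 for independent, normally distributed values. CPM need not be normal, and the sets of all members share libraries, so no excess over chance is read from this. Library X10, of HDM AIR parenchyma, was highest for Il1b (332.6 CPM, the others from 49.6 to 192.5), Il1a (71.4, the others from 17.2 to 41.2) and Il1rap (42.5, the others from 24.2 to 32.6). X166, of PBS AIR parenchyma, was highest for Il1b (43.5, the others from 17.8 to 28.9) and Il1r2 (5.01, the others from 0.736 to 2.94). Without both libraries the log2FC with HDM in parenchyma was 2.06 for Il1b, 0.44 for Il1a and 0.18 for Il1rap, that with CS was 1.44 for Il1b and 2.77 for Il1r2, and the interaction was -2.14 for Il1b, -0.72 for Il1a and -2.79 for Il1r2. Each of these passed with and without them.

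For Il18 the outlying libraries were X183 in HDM airways at 3 weeks (19.4 CPM, the others up to 10.7), X85 in PBS AIR airways (24.2, the others up to 16.1), X109 in HDM AIR airways (30.3, the others up to 19.1) and X173 in PBS CS parenchyma (71.9, the others up to 43.2). For Il1r1 they were X159 in airways (95.6 CPM, the others up to 71.9) and X160 in parenchyma (97.97, the others up to 69.1) of HDM CS DEX mice, which carry adjacent codes. The decoy Il1r2 stood out in X64, HDM parenchyma at 3 weeks (135.1 CPM, the others up to 63.2), and X131, HDM AIR DEX airways (19.9, the others up to 12.4). Il1rn stood out in X77, HDM CS airways (236.8 CPM, the others up to 153.6), and X108, PBS AIR DEX parenchyma (25.3, the others up to 17.2). The other cases were Il1a in X180, HDM CS DEX parenchyma (38.1 CPM, the others up to 27.6), Casp1 in X104, HDM parenchyma at 3 weeks (83.7, the others up to 72.7), and Il1rap in X73, PBS CS airways (33.04, the others up to 28.8). Il1rap in X59, HDM CS DEX airways, was the 1 low case (18.8 CPM, the others from 25.5).

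Of the differences between effects that were tested by limma over all genes, 28 (22.2%) passed. Of all genes, 19.1% in airways and 36% in parenchyma passed the interaction of HDM and CS. For HDM at 11 less 3 weeks 28.4% and 42.4% did. For the HDM effect between tissues 17.3% did at 3 weeks and 27.6% at 11 weeks. Shares for the other differences are not given here, so the 22.2% does not set the members apart. The interaction of HDM and CS gave 12 of the 28. In airways these were Il1rn (-2.05), Il1r2 (-1.96), Il1b (-1.55), Nlrp3 (-1.07), Il1a (-0.74) and Casp1 (-0.45). In parenchyma they were Il1rn (-2.91), Il1r2 (-2.71), Il1b (-2.23), Nlrp3 (-1.52), Casp1 (-1.0) and Il1a (-0.85). The effect in airways less that in parenchyma passed for Casp1 with HDM at 3 weeks (-0.80), with HDM at 11 weeks (-0.60) and with HDM and CS (-0.44). The DEX effect differed from that in PBS AIR parenchyma for Il1b in HDM AIR (-1.43) and for Il18 in PBS CS (-1.54).

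The HDM effect at 11 less that at 3 weeks passed in airways for Il18 (1.00), Il1rap (-0.38) and Il1r1 (-0.31). In parenchyma it passed for Nlrp3 (-1.76), Il1r2 (-1.70), Il1a (-1.62), Il1rn (-1.59), Il1b (-1.18), Il18 (0.90), Il1rap (-0.58) and Il1r1 (-0.31).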

How the results depend on the processing

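Over 12 alternatives, 4464 values of a member's log2FC were recomputed. Of these, 4330 kept their side of the threshold, 36 no longer passed, 98 newly passed, and none that had passed changed sign. Values that changed sign without having passed made up 2.28%, with a log2FC of at most 0.22 in size as reported. Of 496 counts of called members, 23 moved by over 1.5 times. With edgeR and DESeq2 the count went from 0 to 1 for HDM at 3 weeks between tissues (Il1r2), CS added to HDM in parenchyma (Il1b) and 11 less 3 weeks in airways (Il18). It went from 1 to 2 with both for HDM added to CS in airways (Il1rn, Il1r2) and for DEX in HDM AIR less PBS AIR parenchyma (Il1b, Il1r2). With the round of 20 library codes as a block it was 1, 2 and 2 for the first and last pair of these, and 2 (from 1) for DEX in PBS CS less PBS AIR parenchyma (Il18, Il1b). Quality weights gave 2 there, 1 (from 0) for DEX in PBS CS airways (Il1rn), 0 (from 1) for PBS mice at 3 weeks between tissues, as DESeq2 did, and 2 (from 0) for 11 less 3 weeks in airways. Libraries of 1 tissue gave 1 for the latter, and no filter gave 2 for HDM added to CS in airways. For DEX in HDM AIR parenchyma the count of 1 became 2 without the 5 libraries least like their group and 0 without X10 and X166. The cause was not tested.

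Of the 27 nearest genes, 6 were shared when Spearman replaced Pearson. The level means moved in 0 of 180 cases, and pathway list counts in 5.34% of 1984. Some results that passed lie near the threshold and did not pass under at least 1 alternative. Among these were Il1a with CS in airways, Il1a with HDM and CS in parenchyma, and Il1b with HDM added to CS in airways. So were Il1rn with CS added to HDM in parenchyma, the airway interaction of Il1a and Casp1, and Casp1 with HDM and CS between tissues. With DEX they were Il1b in PBS CS parenchyma, Casp1 and Il1rn in HDM CS airways, Il1r1 and Casp1 in PBS AIR airways, and Il1rn in PBS CS airways. Further cases were Il1rap with HDM in parenchyma at 11 weeks, Nlrp3 in PBS AIR mice between tissues, and Il1r2 with HDM at 11 less 3 weeks in parenchyma. Counts of all genes that passed rose with quality weights from 1697 to 3085 for DEX in HDM CS airways, from 1814 to 3671 for HDM added to CS in parenchyma, and for DEX in parenchyma from 4124 to 6431 (PBS AIR), 3080 to 4964 (PBS CS) and 1434 to 2949 (HDM CS). DESeq2's size factors moved the share of higher genes among those whose HDM effect at 3 weeks passed as different between tissues from 62.7% to 42.1%.

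The labels allowed no paired analysis because the groups share no replicate numbers, as each library carries its own code. As a hint from the codes and not from the design, adjacent airway and parenchyma codes were taken as a random replicate block. Consensus correlations were 0.127 at 3 weeks and 0.349 at 11 weeks, and no count of called members moved. Counts of all genes that passed between tissues did change. For the HDM effect at 11 weeks 5031 passed without the block, and 3690 higher and 3620 lower with it. At 3 weeks 3000 passed without it, and 2320 higher and 1422 lower with it. Tests between tissues thus depend on taking libraries as independent. In 88 of 101 adjacent pairs the deviations from the group means correlated at over 0.1, and in 75 the adjacent code was the best match of its group.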
